A study of Zea mays with 12 samples.

Results

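The 6 PP2C genes of maize (Zea mays) described here were measured in 12 RNA-seq libraries, namely PP2C A9 (Zm00001d025055, also PP2C13), PP2C A5 (Zm00001d005609, also PP2C16), PP2C 26 (Zm00001d028752), PP2C 32 (Zm00001d047732), PP2C30 (Zm00001d017670) and PP2C28 (Zm00001d014291). They were chosen by identifier and make up 6 of the 38444 features in the count table, and all 6 passed the filter on low counts that left 26401 features for testing. The libraries came from V3 seedling shoots of homozygous wild-type (WT) and homozygous mop1-1 siblings, grown from a selfed heterozygote ear of mop1-1 introgressed into the inbred B73. Roots stood for 1 h in liquid Murashige and Skoog medium, either plain (MS) or holding 50 µM abscisic acid (ABA), which gave 4 groups (WT MS, WT ABA, mop1-1 MS and mop1-1 ABA) of 3 libraries each. WT MS is the group with neither the mutation nor the hormone, and all groups share the B73 background and the handling of uprooted seedlings. The methods call the libraries of a group biological replicates, and the number of seedlings behind each library is not given in the sources used here.

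PP2C proteins are protein phosphatases, and those of clade A are the negative regulators at the core of ABA signalling. In the model worked out largely in Arabidopsis, they hold SnRK2 kinases inactive by dephosphorylation until ABA bound to a PYR/PYL receptor blocks the phosphatase, after which the freed kinases phosphorylate bZIP transcription factors that switch on ABA-responsive genes. Transcripts of many clade A PP2C genes in Arabidopsis rise after ABA, a negative feedback on the pathway. MOP1 is a maize RNA-dependent RNA polymerase needed for most of the small interfering RNAs that guide RNA-directed DNA methylation, and the question the libraries address is how an early ABA response depends on it. The names A5 and A9 are names of clade A genes. Clade membership of the 6 was not checked by sequence, and 4 of the 6 were matched to a RefSeq gene through older identifiers that the study pairs with them. PP2C 26 and PP2C 32 carry the names the study uses.

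Levels are given in CPM, the count of a gene scaled by the TMM-adjusted library total. They were not divided by transcript length. Apart from sums and shares over the genes, they are therefore compared within a gene and not between genes. Comparisons follow the study's group names. Group B is WT ABA against WT MS, Group A is mop1-1 ABA against mop1-1 MS, Group C is mop1-1 ABA against WT ABA, and Group D is mop1-1 MS against WT MS. A gene was called differentially expressed at a Benjamini-Hochberg adjusted p of at most 0.05 and an absolute log2 fold change of at least 0.95 in the edgeR quasi-likelihood (QL) test over all features tested. Total counts ran from 38295994 to 65574775 per library. The shoot marker psbs1, a photosystem subunit, had mean levels of 1752 to 2229 CPM in the 4 groups, and the root genes nas2, nrt2.2 and ZmCASP1 were at most 0.393 CPM in any library. Every library lay closer to the other libraries of its own genotype than to those of the other genotype. However, 5 of the 12 lay closer to the other treatment of their genotype than to their own group. These were WT MS replicate 1, mop1-1 ABA replicate 1 and every mop1-1 MS library, of which replicate 1 by very little. WT MS replicate 1 and mop1-1 ABA replicate 1 also stood apart from their group in several PP2C genes, and results are given without them where they matter. No row of the count table matched the mop1 gene itself under the identifiers at hand, so the genotype labels were not checked on that transcript.

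PP2C A5, a gene with a clade A name, was separated by genotype under ABA and not without it. The study listed this gene as differing in Group C and not in Group D, so the contrast is not independent of that choice. Its level was 28.3, 8.42 and 10.6 CPM in WT MS replicates 1 to 3 and 33.2, 27.2 and 25.98 CPM in WT ABA. In mop1-1 MS it was 5.88, 9.19 and 8.50 CPM, and in mop1-1 ABA it was 14.6, 4.82 and 6.23 CPM. The highest mop1-1 ABA library was thus below the lowest WT ABA library, while WT MS replicate 1 sat with the WT ABA libraries and apart from the other WT MS libraries. By group mean the order was WT ABA (28.8 ± 3.86 CPM, SD, n = 3), WT MS (15.8 ± 10.9), mop1-1 ABA (8.54 ± 5.27) and mop1-1 MS (7.86 ± 1.74), and each group overlapped the next one in this order.

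PP2C A9, the other gene with a clade A name, had the widest spread of the 6. The WT MS libraries gave 21.2, 4.40 and 8.98 CPM, and those of WT ABA gave 28.4, 11.95 and 16.6 CPM. In mop1-1 MS they were 6.34, 9.61 and 9.21 CPM and in mop1-1 ABA 8.92, 3.77 and 1.37 CPM. All 3 mop1-1 ABA libraries were below all 3 WT ABA libraries, and WT MS replicate 1 was again far above the other WT MS libraries. The order of group means was WT ABA (19.0 ± 8.46 CPM, SD, n = 3), WT MS (11.5 ± 8.71), mop1-1 MS (8.39 ± 1.79) and mop1-1 ABA (4.69 ± 3.86), with each neighbouring pair overlapping. Its biological coefficient of variation, the replicate spread that edgeR estimates within groups, was 0.524, against 0.391 for PP2C A5 and 0.228 to 0.293 for the other 4 genes.

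PP2C 26, annotated as a phosphatase of the same family, was measured at 10.7, 12.9 and 17.1 CPM in the WT plants without ABA and at 22.8, 18.3 and 15.5 CPM in those given it. In mop1-1 MS it was at 16.6, 7.86 and 10.6 CPM and in mop1-1 ABA at 11.8, 5.57 and 5.79 CPM. The group means ran from WT ABA (18.8 ± 3.67 CPM, SD, n = 3) through WT MS (13.6 ± 3.22) and mop1-1 MS (11.7 ± 4.45) to mop1-1 ABA (7.72 ± 3.55). Each neighbouring pair in this order overlapped, and the end pair, WT ABA and mop1-1 ABA, did not.

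PP2C 32, a further family member, had an SD of 9.77% to 17.8% of the mean in WT MS, WT ABA and mop1-1 MS. In mop1-1 ABA the SD was 33.2% of the mean. The WT MS libraries held 4.53, 6.36 and 6.20 CPM and the WT ABA libraries 8.25, 9.42 and 7.03 CPM. The mop1-1 MS libraries held 4.30, 3.78 and 3.57 CPM and the mop1-1 ABA libraries 5.42, 2.99 and 3.38 CPM. WT ABA (8.23 ± 1.20 CPM, SD, n = 3) lay above WT MS (5.70 ± 1.01) without overlap, and WT MS lay above mop1-1 MS (3.88 ± 0.379) without overlap. The mop1-1 ABA mean (3.93 ± 1.31) was between those of WT MS and mop1-1 MS, and its replicate 1 reached into the range of WT MS.

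PP2C30, also a PP2C phosphatase gene, had no clear separation of groups. Its levels in WT plants were 5.38, 4.24 and 3.29 CPM without ABA and 5.92, 5.26 and 4.24 CPM with ABA. The mop1-1 plants held 2.24, 3.35 and 3.94 CPM without ABA and 3.81, 3.72 and 5.17 CPM with ABA. Group means of 3.18 to 5.14 CPM stood in the same order as those of PP2C 32 with WT MS and mop1-1 ABA almost level (4.30 ± 1.05 and 4.24 ± 0.815, SD, n = 3), and no pair among Groups A to D was free of overlap.

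PP2C28 differed from the first 4 genes in the place of WT ABA among its groups. Without ABA, WT plants held 33.2, 40.6 and 69.8 CPM, and with it they held 22.9, 30.7 and 26.3 CPM. In mop1-1 MS it was at 43.8, 27.6 and 41.3 CPM and in mop1-1 ABA at 48.4, 38.04 and 40.9 CPM. WT ABA was therefore its lowest group (26.6 ± 3.89 CPM, SD, n = 3), below mop1-1 MS (37.6 ± 8.70), mop1-1 ABA (42.4 ± 5.37) and WT MS (47.9 ± 19.4), whereas WT ABA was the highest group for each of the other 5 genes. The WT ABA libraries did not overlap those of WT MS or mop1-1 ABA, and they overlapped those of mop1-1 MS.

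**Figure D1:**
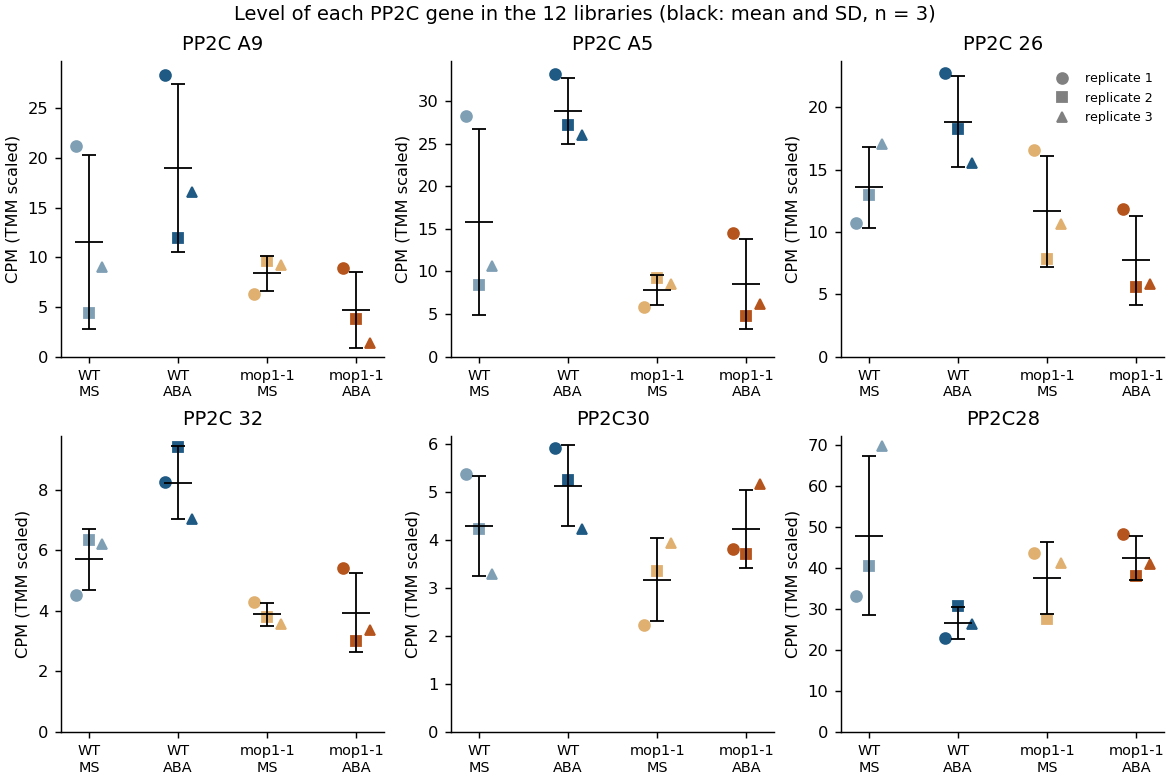
Level of each PP2C gene (CPM after TMM scaling, linear axis from 0) in the 12 libraries, with the 3 replicates of each group as separate symbols and the mean and SD in black. In WT ABA, 5 genes have their highest group mean and PP2C28 its lowest, and replicate 1 of WT MS stands above its group for PP2C A9 (21.2 CPM) and PP2C A5 (28.3 CPM).

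The response to ABA in WT plants (Group B) was positive in 5 of the 6 genes and negative in PP2C28, but none was called. The median log2 fold change of the 6 was 0.50 against -0.01 over all features tested. The study had listed 4 of them on Group C, which shares the WT ABA libraries. This median is therefore not independent of how those genes were chosen. PP2C A5 had a log2 fold change of 0.87 (SE 0.46, edgeR QL adjusted p = 0.736), PP2C A9 one of 0.72 (SE 0.62, edgeR QL adjusted p = 0.862) and PP2C 32 one of 0.53 (SE 0.24, edgeR QL adjusted p = 0.699). PP2C 26 was at 0.47 (SE 0.33) and PP2C30 at 0.26 (SE 0.27). For PP2C28 the value was -0.85 (SE 0.26, edgeR QL adjusted p = 0.531), with a 95% interval of -1.41 to -0.29, so that its level in WT ABA was 55.6% of that in WT MS.

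No feature at all was called in Group B by this test (percent called 0 in each direction), and 3.23% of features were higher and 3.92% lower at an unadjusted p under 0.05 (1887 in all), PP2C 32 and PP2C28 among them. Those are the genes whose WT ABA and WT MS libraries did not overlap, a pattern found in 5.98% of features in the higher and 5.91% in the lower direction. The exact test of edgeR called 42 features and DESeq2 called 68 in Group B, and neither called any of the 6 genes. WT MS replicate 1 weighed on the 2 genes with clade A names. Without it the Group B log2 fold change was 1.60 for PP2C A5 (edgeR QL adjusted p = 0.313) and 1.503 for PP2C A9 (edgeR QL adjusted p = 0.623). Other libraries moved the values the other way, to 0.57 for PP2C A5 without WT MS replicate 2 and to 0.31 for PP2C A9 without WT ABA replicate 1. For PP2C28 the value was -0.47 without WT MS replicate 3.

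In mop1-1 plants the same treatment (Group A) gave values on both sides of 0. PP2C A9 was at -0.84 (SE 0.63) on the log2 scale and PP2C 26 at -0.59 (SE 0.33), while PP2C30 was at 0.42 (SE 0.27), PP2C28 at 0.18 (SE 0.25), PP2C A5 at 0.12 (SE 0.46) and PP2C 32 at 0.02 (SE 0.24). All 6 had an edgeR QL adjusted p of 1, all 6 pairs of groups overlapped, and the median of the 6 was 0.07. The percent of all features called in Group A was 0 in either direction. At an unadjusted p under 0.05 there were 1011 features, 1.84% higher and 1.99% lower, and none of the 6 genes was among them, while 4.69% of features were higher and 5.02% lower without overlap. The exact test called 1 feature and DESeq2 called 13, none of them a PP2C gene described here.

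The library mop1-1 ABA replicate 1 had the highest level of its group for 5 of the 6 genes, all but PP2C30, and mop1-1 ABA replicate 2, the library with the lowest total count, had the lowest level for 5. Without replicate 1 the Group A log2 fold changes of PP2C A5 and PP2C 32 became -0.51 and -0.28, that of PP2C A9 became -1.72 and that of PP2C 26 became -1.04 (edgeR QL adjusted p = 0.923), none of them called. Other libraries moved them the other way, PP2C A9 to -0.40 without mop1-1 ABA replicate 3, PP2C 26 to -0.25 without mop1-1 MS replicate 1 and PP2C A5 to 0.40 without mop1-1 ABA replicate 2.

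Group C compared the genotypes under ABA. In mop1-1 ABA the level was 24.8% of that in WT ABA for PP2C A9, 29.7% for PP2C A5, 41.1% for PP2C 26 and 47.9% for PP2C 32, and it was 159% for PP2C28. None of the 6 reached the threshold in the QL test, where 0.424% of all features tested were called lower and 0.769% higher. PP2C 32 came nearest, with a log2 fold change of -1.06 (SE 0.25, 95% interval -1.60 to -0.53, edgeR QL adjusted p = 0.0569). PP2C 26 followed at -1.28 (SE 0.34, 95% interval -2.01 to -0.55, edgeR QL adjusted p = 0.0910) and PP2C A5 at -1.75 (SE 0.47, 95% interval -2.77 to -0.73, edgeR QL adjusted p = 0.0965).

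PP2C A9 had the largest Group C difference of the 6 and the widest error, -2.01 (SE 0.65, 95% interval -3.42 to -0.61, edgeR QL adjusted p = 0.156). PP2C28 was at 0.67 (SE 0.26, 95% interval 0.12 to 1.23, edgeR QL adjusted p = 0.227) and PP2C30 at -0.28 (SE 0.27, 95% interval -0.87 to 0.31). PP2C A9 and PP2C A5 lay at the low edge of the distribution over features, with 0.705% and 0.966% of features at a lower log2 fold change, and PP2C 26 and PP2C 32 followed at 2.01% and 2.99%. The median of the 6 was -1.17 against 0.01 over all features.

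Before adjustment, 4 of the 6 genes had a p under 0.05 in the lower direction and 1 in the higher direction, where 7.89% and 8.09% of all features did. The same 5 were the genes without overlap between mop1-1 ABA and WT ABA, against 12.4% of features lower and 12.5% higher without overlap. PP2C A9, PP2C A5, PP2C 26 and PP2C 32 stand in the study's own Group C list of genes with siRNA homology. That list was chosen on these libraries, from genes the study called in Group C and not in Group D. A Group C difference in these 4 genes is therefore not independent evidence of a change, and neither is its absence in Group D. PP2C30 and PP2C28 are not in that list. Where the study gives predicted network targets, it marks the listed phosphatase genes as upregulated in its Group C. That is the opposite of the direction found here. The study is not uniform on direction, since its text swaps the counts of up- and downregulated genes behind this list between sections. Directions here come from the counts alone.

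Whether the Group C differences were called depended on the test. The exact test of edgeR, with dispersions from all 12 libraries, called PP2C A5 (adjusted p = 0.0115), PP2C 26 (adjusted p = 0.0126) and PP2C 32 (adjusted p = 0.00961), among 1.26% of features called lower. DESeq2 called the same 3 genes, at adjusted p-values of 0.00307, 0.00587 and 0.00337, among 1.45% of features called lower. PP2C A9 was called by neither, at an adjusted p of 0.05001 in the exact test, just above the threshold, and of 0.0749 in DESeq2. The QL test on the 6 ABA libraries alone called PP2C A5 (edgeR QL adjusted p = 0.0348), where it called 352 of 25286 features lower. In that run PP2C28 passed the adjusted p in the higher direction (0.67, edgeR QL adjusted p = 0.0441) but not the fold threshold.

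Single libraries mattered as well. Without mop1-1 ABA replicate 1 the QL test called PP2C A5 (log2 fold change -2.38, adjusted p = 0.0425), PP2C 26 (-1.73, adjusted p = 0.0308) and PP2C 32 (-1.37, adjusted p = 0.0202), where it called 58 of 26215 features lower. Without WT MS replicate 1, which enters Group C only through the shared estimate of spread, it called PP2C A5 (adjusted p = 0.0272) and PP2C 32 (adjusted p = 0.0415), where it called 225 of 26314 features lower. Leaving out each of the 12 libraries in turn, the Group C log2 fold change ranged from -2.90 to -1.57 for PP2C A9, from -2.38 to -1.47 for PP2C A5, from -1.73 to -1.10 for PP2C 26 and from -1.37 to -0.90 for PP2C 32, and that of PP2C28 from 0.57 to 0.79.

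**Figure D2:**
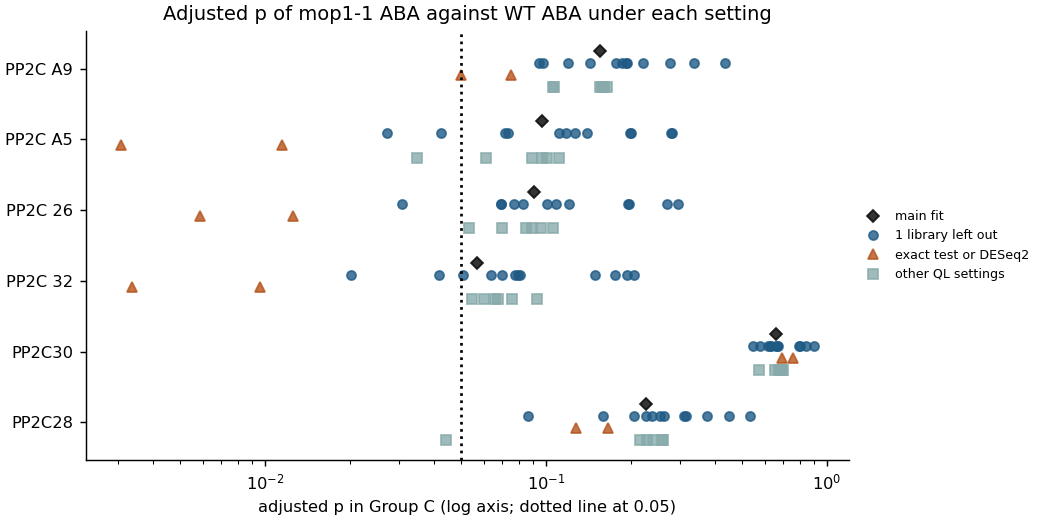
Adjusted p of each PP2C gene in Group C (log axis, dotted line at 0.05) in the QL test of 12 libraries, with 1 library left out, under the exact test or DESeq2, and under the other QL settings. PP2C A5, PP2C 26 and PP2C 32 fall on both sides of the line, with QL values of 0.0965, 0.0910 and 0.0569 in the fit of all libraries, while PP2C30 lies right of the line under every setting shown. PP2C28 falls left of the line in the QL test of the ABA libraries alone (0.0441).

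Without ABA (Group D) the 6 genes were all on the negative side. The study's list left out genes it called in Group D, so the lack of a call is not independent for the listed genes. PP2C A5 was at -1.002 (SE 0.46, edgeR QL adjusted p = 0.490), PP2C 32 at -0.55 (SE 0.24, edgeR QL adjusted p = 0.466) and PP2C A9 at -0.46 (SE 0.62, edgeR QL adjusted p = 0.896). PP2C30 was at -0.44 (SE 0.27), PP2C28 at -0.35 (SE 0.25) and PP2C 26 at -0.22 (SE 0.33). None was called, where 0.216% of features were called lower and 0.689% higher, and 1 gene, PP2C 32, had an unadjusted p under 0.05 and no overlap between the groups, as had 5.04% and 5.85% of features in the lower direction, against 5.2% and 7.45% in the higher. WT MS libraries carried part of these values. Without WT MS replicate 1 PP2C A5 was at -0.28 (edgeR QL adjusted p = 0.878) and PP2C A9 at 0.33, and without WT MS replicate 2 they were at -1.30 and -0.85. Without WT MS replicate 3 PP2C28 was at 0.03.

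**Figure D3:**
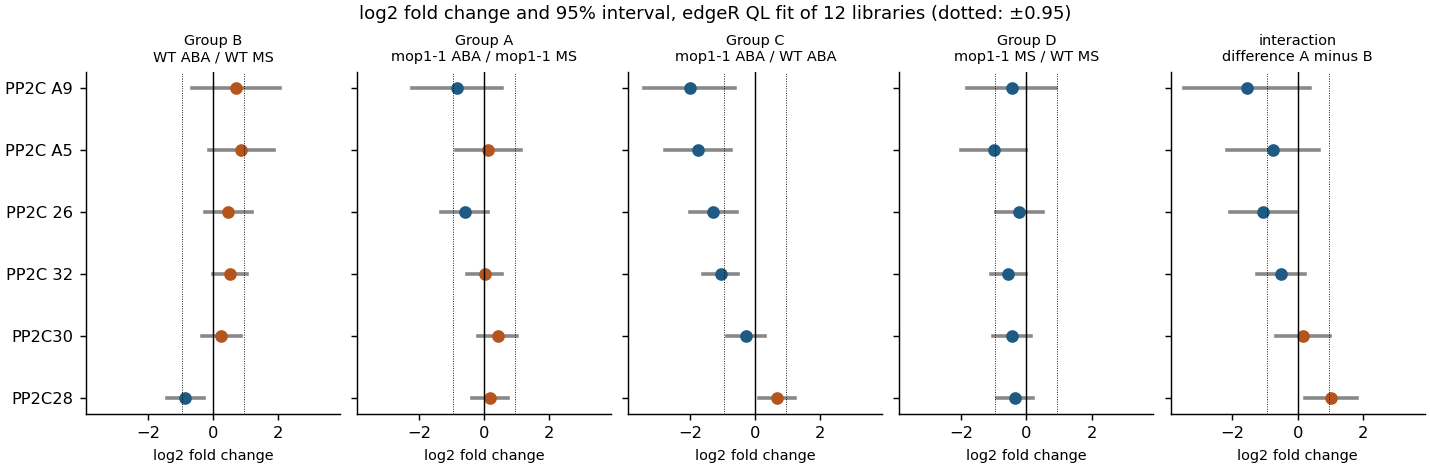
Log2 fold change (point) and 95% interval (bar) of each PP2C gene in Groups B, A, C and D and in the interaction (Group A minus Group B), from the edgeR QL fit of 12 libraries, with dotted lines at the fold threshold of 0.95 in either direction. The intervals of 4 genes lie below 0 in Group C, where PP2C A9 is at -2.01 and PP2C28 at 0.67.

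Group C and Group D differ by the genotype-by-ABA interaction, which is equal to Group A minus Group B and was tested in the same fit. It was 1.02 (SE 0.36, 95% interval 0.24 to 1.81) for PP2C28 and -1.07 (SE 0.47, 95% interval -2.08 to -0.05) for PP2C 26, the 2 genes of the 6 with an unadjusted p under 0.05. PP2C A9 was at -1.56 (SE 0.89), PP2C A5 at -0.75 (SE 0.65), PP2C 32 at -0.51 (SE 0.34) and PP2C30 at 0.16 (SE 0.38). No feature was called for the interaction by the QL test (percent called 0), although 1120 features had an unadjusted p under 0.05, 2.27% higher and 1.97% lower, and DESeq2 called 27 features, none of the 6 genes. The edgeR QL adjusted p was 1.00 for each of the 6, so a larger genotype difference under ABA than without it was not shown for any of them. The study listed PP2C A9, PP2C A5, PP2C 26 and PP2C 32 as differing in Group C and not in Group D. Their interaction values are therefore not independent of that choice. With 1 library left out the interaction ranged from -2.44 to -1.12 for PP2C A9 (without mop1-1 ABA replicates 1 and 3), from -1.47 to -0.44 for PP2C A5 (without WT MS replicates 1 and 2) and from 0.65 to 1.23 for PP2C28 (without WT MS replicates 3 and 1). For PP2C 26 it ranged from -1.51 to -0.73 (without mop1-1 ABA replicate 1 and mop1-1 MS replicate 1), and none was called.

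Averaged over both treatments, with 6 libraries of each genotype, PP2C A5 was the gene that passed the threshold. Its level fell in mop1-1 to 38.5% of that in WT, a log2 fold change of -1.38 (SE 0.33, edgeR QL adjusted p = 0.0353), where 0.989% of all features were called lower and 1.79% higher. PP2C 32 passed the adjusted p, as did 2.11% of features on the lower side, but not the fold threshold, at -0.81 (SE 0.17, edgeR QL adjusted p = 0.0216). PP2C A9 was at -1.24 (SE 0.45, edgeR QL adjusted p = 0.147), PP2C 26 at -0.75 (SE 0.23, edgeR QL adjusted p = 0.0979), PP2C30 at -0.36 (SE 0.19) and PP2C28 at 0.16 (SE 0.18). DESeq2 called PP2C A5 as well (adjusted p = 0.000322), among 1.41% of features called lower. The average takes in the Group C libraries, and the study listed PP2C A5 on those. Neither call is therefore independent evidence of a genotype effect.

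The QL call of PP2C A5 did not hold when WT MS replicate 1, any WT ABA replicate, any mop1-1 MS replicate, or mop1-1 ABA replicate 2 or 3 was left out, with edgeR QL adjusted p-values between 0.0539 and 0.0899. Without mop1-1 ABA replicate 1 the QL test called PP2C A5, PP2C 26 and PP2C 32, where it called 182 of 26215 features lower. PP2C A5 lies on chromosome 2, as does mop1, with 1300 protein-coding genes between them in the order of the NAM-5.0 assembly, and PP2C A9, PP2C30 and PP2C28 lie on other chromosomes. What the mop1-1 siblings carry along chromosome 2 besides the mutation was not tested.

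The ABA effect averaged over both genotypes was between -0.34 (PP2C28, SE 0.18) and 0.50 (PP2C A5, SE 0.32) on the log2 scale, with edgeR QL adjusted p-values of 0.777 to 0.995. No feature was called in this average by the QL test (percent called 0), and DESeq2 called none of the 6 genes. PP2C A9 and PP2C 26, whose values in Groups A and B had opposite signs, were both at -0.06.

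Summed over the 6 genes the level averaged 98.8 ± 20.0 CPM in WT MS (SD, n = 3) and 107 ± 13.3 CPM in WT ABA. The mop1-1 libraries summed to 72.6 ± 9.70 CPM without ABA and to 71.6 ± 18.6 CPM with it. The lowest WT ABA library (95.7 CPM) was above the highest mop1-1 ABA library (92.96 CPM) by little, and PP2C28 stood on the opposite side of this comparison from the other 5 genes. PP2C28 took 25.4 ± 5.75% of the summed level in WT ABA and 60.6 ± 7.37% in mop1-1 ABA, with 48.3 ± 14.6% in WT MS and 51.3 ± 5.50% in mop1-1 MS. Its share was at most 29.8% in the WT ABA libraries and at least 32.1% in every other library. The study had listed 4 of the other 5 genes as differing between mop1-1 ABA and WT ABA. The summed levels and the shares in those groups are therefore not independent of that choice. Levels were not divided by transcript length, so a share here is not a proportion of transcripts. In bulk shoots, fewer cells that express a gene and less of its RNA per cell cannot be told apart.

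**Figure D4:**
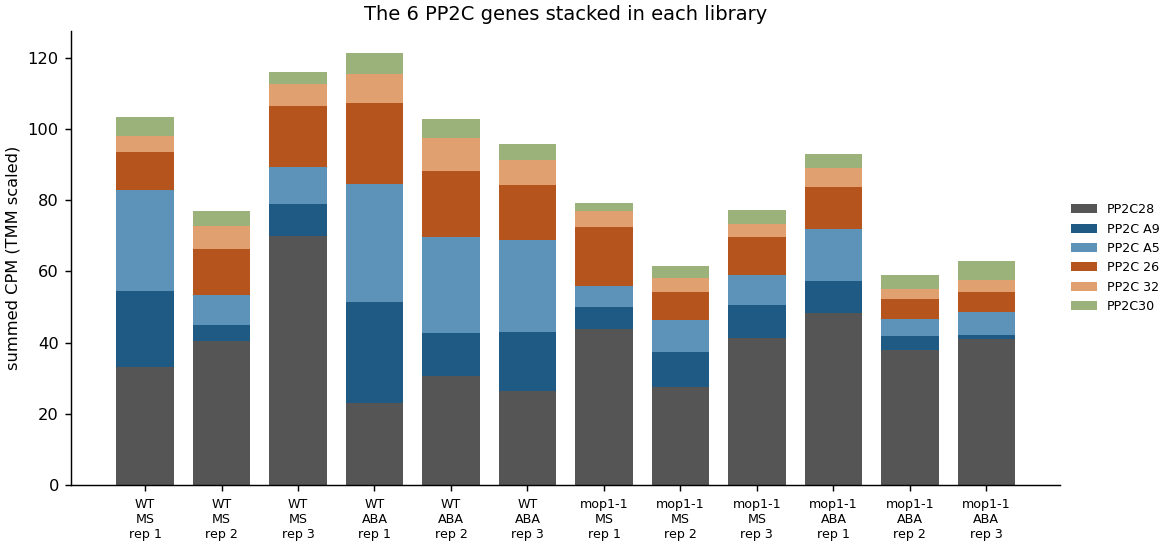
Summed level of the 6 PP2C genes (CPM after TMM scaling, stacked from 0) in each of the 12 libraries, coloured by gene. The PP2C28 segment at the base is 18.9 to 29.8% of the bar in WT ABA and 52.1 to 65.1% in mop1-1 ABA, and the sums do not account for transcript length.

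In each of the 4 groups the replicate with the highest level was not the same for all genes. WT MS replicate 1 had the highest level of its group for PP2C A9, PP2C A5 and PP2C30 and the lowest for PP2C 26, PP2C 32 and PP2C28. WT ABA replicate 1 was highest for 4 genes and lowest for PP2C28. In mop1-1 MS, replicate 1 was highest for PP2C 26, PP2C 32 and PP2C28 and lowest for the other 3 genes. In mop1-1 ABA, replicate 1 was highest for 5 genes and replicate 2 lowest for 5. PP2C A9 and PP2C A5 thus shared their highest library in each of the 4 groups, as a description of 3 libraries a group.

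Among 19499 annotated features, the pattern most like that of each gene over the 12 libraries, by Pearson correlation of log2 CPM, belonged to Zm00001d014083 for PP2C A9 (r = 0.960), Zm00001d012720 for PP2C A5 (r = 0.952), Zm00001d039524 for PP2C 26 (r = 0.973) and Zm00001d022241 for PP2C 32 (r = 0.949). For PP2C30 it was Zm00001d022191 (r = 0.892) and for PP2C28 it was Zm00001d012559 (r = 0.969). None of the 6 genes was among the 3 nearest features of another. These values are the highest of many, and the points share libraries and depth within each pair.

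Of the other ABA pathway genes in a list by name, 7 were tested (the receptors PYL3, PYL5 and PYL10, the kinase SnRK2.8, the transcription factors bZIP TF 4 and ABI3-VP1 TF 28, and the dehydrin dhn2, a dehydration-response protein) and 0 of the 7 were called in either direction in Groups A to D, in the interaction or in the ABA average. In the genotype average 1 of the 7 was called, ABI3-VP1 TF 28, which fell in mop1-1 (log2 fold change -1.06, SE 0.20, edgeR QL adjusted p = 0.0103). It was called with any 1 library left out (edgeR QL adjusted p of 0.00454 to 0.0324). Of all features tested, 0.989% were called lower and 1.79% higher in the genotype average. PYL3 passed the adjusted p there but not the fold threshold (-0.79, SE 0.17, edgeR QL adjusted p = 0.0218). In Group C, ABI3-VP1 TF 28 was at -1.19 (SE 0.28, edgeR QL adjusted p = 0.0624), bZIP TF 4 at -1.27 (SE 0.58, edgeR QL adjusted p = 0.315), PYL3 at -0.58 (SE 0.24, edgeR QL adjusted p = 0.265) and SnRK2.8 at 0.12 (SE 0.10, edgeR QL adjusted p = 0.613). ABI3-VP1 TF 28 and bZIP TF 4 also stand in the study's Group C list, chosen on these libraries. Their lower levels in mop1-1 are therefore not independent evidence of a change. Where it gives predicted network targets, the study marks them as upregulated in its Group C, the opposite of the direction found here. As said for the phosphatase genes, the study is not uniform on direction. The dehydrin dhn2 had a log2 fold change of -0.29 (SE 0.28, edgeR QL adjusted p = 0.882) in Group B.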

How the data were processed

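Shoot polyA RNA was sequenced as 150 bp read pairs. The authors checked read quality with fastp 0.21.0, trimmed with Cutadapt, aligned them to B73 version 4 with HISAT2 2.2.1, assembled transcripts with StringTie 2.1.4 and deposited gene counts, which StringTie derives from transcript coverage. The table held 38444 features (28534 annotated genes, 9774 assembled loci, 104 microRNA genes and 32 others). Assembly can move reads between a gene and an overlapping locus, and reads shared by near-identical copies can be split.

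From these counts, features with at least 0.58 CPM in at least 3 libraries (26401) were tested in edgeR 4.0.16 (R 4.3.3) with TMM scaling, 4 group means over 12 libraries, the quasi-likelihood F test and Benjamini-Hochberg adjustment over all features tested. Thresholds of an adjusted p of 0.05 and a log2 fold change of 0.95 follow the study. The SE is the log2 fold change divided by the square root of F, with 95% intervals from the same fit. DESeq2 1.42.0, the edgeR exact test, other scalings and filters, a replicate block, annotated genes alone and leaving out each library were alternatives. The test was tried on simulated counts.

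The named genes are the 6 PP2C genes, the 4 pathway genes with the smallest adjusted p in Group C, any called pathway gene, and the features nearest to each PP2C gene by correlation, of which the first is printed. The dehydrin dhn2 and the marker genes psbs1, nas2, nrt2.2 and ZmCASP1 were added. The PP2C genes and lists were chosen with earlier results of these data known. Replicate numbers gave no sign of pairing libraries in the mean correlation of deviations. It was -0.00572 over 18 pairs with the same number and 0.00295 over 36 others. These means do not settle pairing for single genes, so a replicate block was run as an alternative. No library pair agreed within counting noise.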

Additional observations from a re-analysis of the deposited data

How the results depend on the processing

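The number of PP2C genes called was 0 in Groups A, B and D and in the interaction under each alternative run. In Group C it was 0 in the QL fit of 12 libraries, 1 with only the 6 ABA libraries, 3 with the exact test and 3 with DESeq2, and 0 to 3 with 1 library left out. For the genotype average it was 1, became 2 without a fold threshold, and was 0 to 3 with 1 library left out. Alternatives for the averages, those for ABI3-VP1 TF 28 included, were chosen after seeing the data. With the replicate block the counts were 0 in Group C and 1 for the genotype average (PP2C A5, edgeR QL adjusted p = 0.0326), and the block changed no other call of a PP2C gene. By unadjusted edgeR QL p under 0.05, the block added PP2C A9 in Group A (0.0498) and the interaction (0.0216), and PP2C A5 in Group B (0.02505). It removed PP2C 32 in Group B (0.0722) and in Group D (0.0521). Over all features, Group C had 315 calls in the QL test, 780 in the exact test, 878 in DESeq2, 677 with the 6 libraries alone, 137 among annotated genes alone and 147 to 543 with 1 library left out. Group D had 239 calls, and 549, 636, 156 and 85 in the same order, with 449 when WT MS replicate 3 was left out. Group B had 0 calls, and 42, 68 and 1 in the first 3 of these, Group A 0, and 1, 13 and 1, and DESeq2 called 27 features for the interaction and 34 for the ABA average, where the QL test called 0. The genotype average had 733 calls, 1202 without a fold threshold and 395 among annotated genes alone. Of the signs of the 6 genes, those of PP2C A5 and PP2C 32 in Group A, PP2C A9 and PP2C28 in Group D, PP2C30 in the interaction and PP2C A9 and PP2C 26 in the ABA average turned when 1 library was left out, none of them called. Ordering the genes by level per length was not run, since no lengths were at hand. The lowest count in any library was 85 to 223 for the 5 genes other than PP2C28 and 1254 for PP2C28. These counts derive from transcript coverage and not from whole read pairs, so the counting error behind them is not known exactly. In every library the total count exceeded the raw paired-end reads that the study gives. Counting error taken from these counts as if they were separate fragments would therefore be too small.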
